A study of Mus musculus with 24 samples.

Results

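Accessible chromatin at the genes of fibroblast growth factor (FGF) signalling was described in mouse skin stem cells before and after wounding, as mapped by ATAC-seq. The assay uses a transposase that inserts into DNA not covered by nucleosomes. The genes were the FGF ligands (Fgf followed by a number), the receptors Fgfr1 to Fgfr4 and Fgfrl1, and the feedback inhibitors of the Sprouty (Spry), Spred and Dusp families. All peaks of the 8 deposited lists were merged into 63188 union regions, and a region went to its closest protein-coding gene if that lay no farther than 50 kb. Of these regions, 103 lay at 26 of the 37 genes that the rule names, with 34 regions at 12 ligand genes, 27 at 5 receptor genes and 42 at 9 inhibitor genes. No region was assigned to the other 11 genes, which were Fgf3, Fgf4, Fgf6, Fgf8, Fgf10, Fgf11, Fgf16, Fgf17, Fgf22, Fgf23 and Spry3. Assignment places a region near a gene and does not show that it acts on it.

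The 24 samples fell into 8 groups of sorted skin cells from a CD1 x C57BL/6J cross. Hair follicle stem cells came from unwounded skin at day 0 (4 samples). Cells labelled as wound-responsive progeny of hair follicle stem cells followed a partial-thickness wound, with 3 samples of day 3, 2 of day 7 and 3 of day 80; their lists are called the partial-wound lists. Cells labelled as wound-responsive progeny of epidermal stem cells followed a full-thickness wound, with 3 samples of day 7 and 2 of day 80 (the full-wound lists). Epidermal stem cells came from unwounded skin at day 0 (4 samples) and day 80 (3 samples). The genotype was Krt19-CreER/R26-YFP in all unwounded and partial-thickness samples, in which the Krt19 promoter drives an inducible Cre, and Sox9-CreER/R26-YFP in all full-thickness samples, in which the Sox9 promoter does. The wound types therefore also differ in Cre driver and labelled origin, and these differences cannot be told apart. Every comparison of a full-wound list with an unwounded list likewise crosses Cre drivers, which cannot be told apart from the wound. The cells were sorted from trypsin-treated skin, and the labels give neither the gates nor the age of the mice or how many animals a sample pooled.

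Most FGF ligands are secreted proteins that bind heparan sulfate and activate receptor tyrosine kinases, which signal through Ras and the MAP kinase cascade. The Sprouty and Spred proteins restrain this cascade upstream of the MAP kinase ERK, and the Dusp phosphatases inactivate ERK itself, so that signalling induces its own brakes. In skin, FGF signals act between dermis and epithelium in hair follicle formation, in the hair cycle and in the repair of wounds. A group of ligands, Fgf11 to Fgf14, is not secreted and acts inside the cell, where its members bind sodium channels.

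Each group came as 1 peak list, so replicate error could not be measured, groups could not be tested, and a list either held a region or did not. The lists held 29365 to 37214 peaks, and read depth is unknown. In the early wound lists (partial days 3 and 7, full day 7), the weakest peaks had −log10 p values of 39.70, 40.19 and 32.24. The day 80 wound lists began at 21.04 (partial) and 7.98 (full), and the follicle list at 17.30. The epidermal lists of days 0 and 80 began at 13.52 and 7.86. Median peak widths lay between 460 and 987 bp. A weak region may therefore be in or out of a list for reasons of threshold. Inside the day 0 epidermal list the peaks are named after a day 7 control, a group that no label mentions; the list was taken for day 0 as its deposited name says. In bulk samples, fewer cells of a type and less open chromatin per cell cannot be told apart. Markers of hair follicle stem cells (6 genes) had 33 regions in the follicle list, 31, 31 and 13 in the partial-wound lists of days 3, 7 and 80, 12 in the day 7 and 18 in the day 80 full-wound list, and 16 and 14 in day 0 and day 80 epidermis. Basal keratinocyte markers (4 genes) had 18 regions in the follicle list, 26, 20 and 24 in the partial-wound lists, 21 and 16 in the full-wound lists, and 9 and 19 in day 0 and day 80 epidermis, where Krt5 had 0 regions at day 0 and 2 at day 80. The follicle label thus went with the highest count of follicle markers, whereas the day 0 epidermal list had the lowest count of keratinocyte markers. Dermal fibroblast markers (5 genes) had 8 regions in the follicle list and 2 to 4 in the others, and Col3a1 had 0 in all 8 lists. Markers of skin T and dendritic cells (4 genes, with Trdc not analysed here) had 0 regions in the follicle list and 1 to 3 in the others. Endothelial markers (3 genes) had 3 regions in the follicle list and 4 to 9 in the others, nearly all at Pecam1, with Kdr at 0 throughout. Melanocyte markers (4 genes) had 13 regions in the follicle list and 8 or 9 in the others, with Pmel at 0 throughout. The part of these cell types in the FGF regions was not tested.

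The share of FGF regions that a list held was compared with that of all regions. The follicle list held 47 of the 103 (45.6%, exact 95% Clopper-Pearson interval 35.8 to 55.7, for counting error only), beside 45.9% of all union regions. The partial-wound lists held 59 at day 3 (57.3%, beside 56.6%), 54 at day 7 (52.4%, beside 55.0%) and 52 at day 80 (50.5%, beside 51.9%). The full-wound lists held 53 at day 7 (51.5%, beside 58.0%) and 59 at day 80 (57.3%, beside 51.1%). The epidermal lists held 53 at day 0 (51.5%, beside 47.8%) and 59 at day 80 (57.3%, beside 49.8%). The gap was thus widest in the day 80 epidermal list, where FGF regions were held more often, and in the day 7 full-wound list, where they were held less often. All 8 lists held 19 FGF regions (18.4%, 11.5 to 27.3), beside 22.0% of all regions, and 26 (25.2%) were in 1 list alone, beside 26.6%. Of the ligand regions, 2 of 34 (5.88%) were in all 8 lists, against 6 of 27 at receptors (22.2%) and 11 of 42 at inhibitors (26.2%). Both of these ligand regions were at Fgf1, and they lay inside the gene Arhgap26 as well. Regions of 1 gene share their locus and are not independent, and the difference between roles was not tested.

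**Figure D1:**
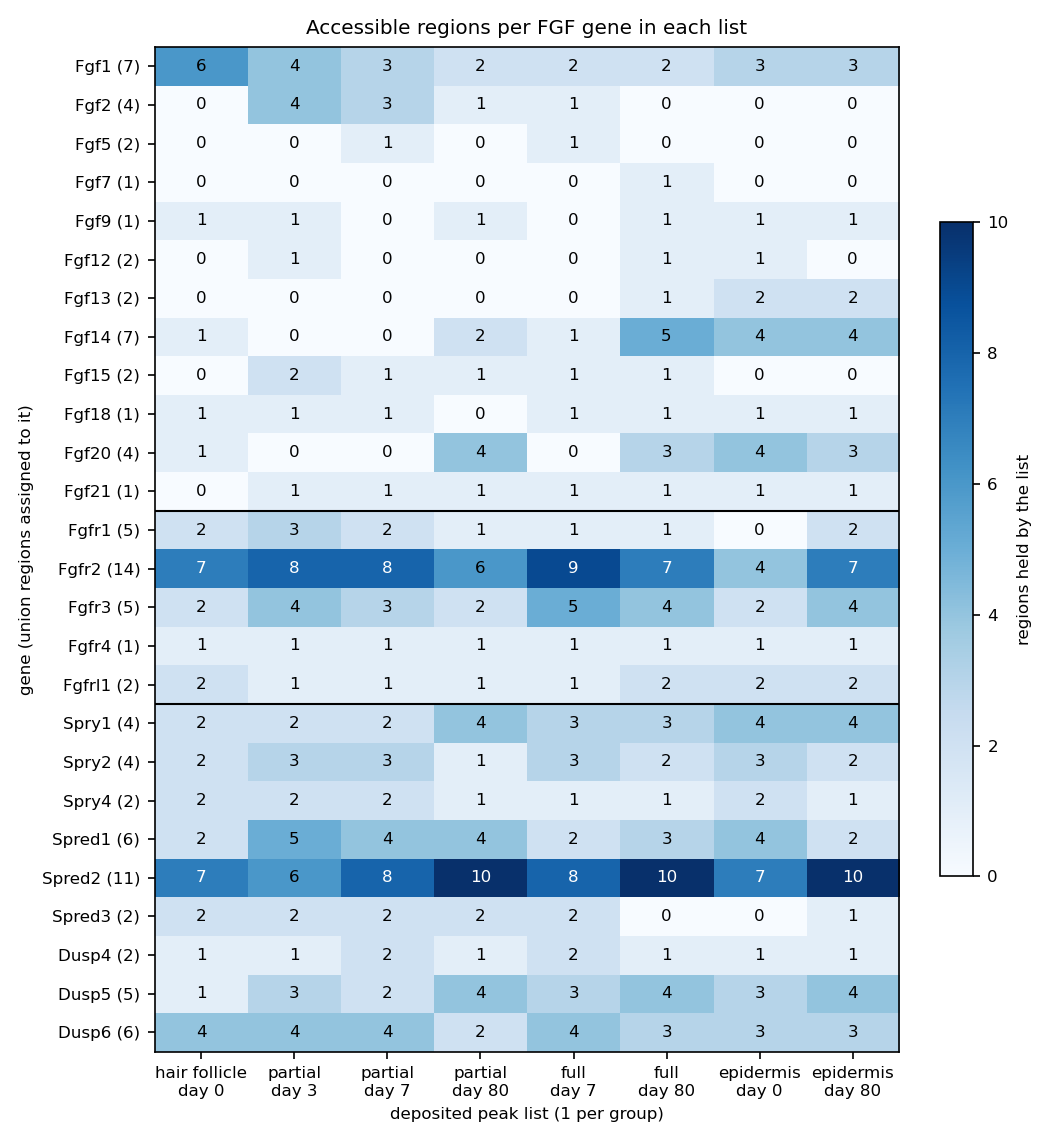
Number of accessible regions at each FGF gene (rows, with all union regions of the gene in parentheses; lines separate ligands, receptors and inhibitors) in each deposited list (columns). Fgf2 has 4 and 3 regions in the early partial-wound lists and 0 in the unwounded lists, whereas Fgf20 has 0 in all early wound lists and 4 and 3 in the epidermal lists.

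The promoters showed which genes of the family were open at their start. RefSeq promoter windows, 250 bases before to 50 after a transcript start, were given for 27 of the 37 genes. Peaks of all 8 lists reached the windows of 6 genes, the receptor-like Fgfrl1 and the inhibitors Spry1, Spred1, Spred2, Dusp5 and Dusp6. A further 7 genes had their window in some lists only, and 14 in none, beside 37.9%, 16.8% and 45.3% of 17491 protein-coding genes with a window. Among the 14 were the ligands Fgf5, Fgf7, Fgf12 and Fgf14 and the receptor gene Fgfr4. The follicle list held 9 of the 27 member promoters (33.3%, beside 46.8% of all genes with a window). The partial-wound lists held 11 at day 3 and 11 at day 7 (40.7% each, beside 49.7% and 48.7%) and 8 at day 80 (29.6%, beside 46.2%). The full-wound lists held 10 at day 7 (37.0%, beside 49.5%) and 8 at day 80 (29.6%, beside 45.5%), and each epidermal list held 9 (33.3%, beside 44.8% at day 0 and 45.9% at day 80). Promoters of all genes were likewise held most often by the 3 early wound lists. The Fgf2 window was in the day 3 and day 7 partial-wound lists and in no other. Fgf13 was the reverse case, with a window in both epidermal lists but in none of the rest, and Fgf9 had its window in the day 3 and day 80 partial-wound lists.

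Shown here are the Fgf2 window, chosen after its values had been seen, the Fgf18 window as a promoter held by part of the lists, and the windows of Dusp6 and Dusp5 as promoters that every list held. They are RefSeq sequences of GRCm38.p6 (the assembly of mm10), 5′ to 3′ along the gene, with CG dinucleotides in capitals. Fgf2 lies at chr3:37348403-37348702 on the plus strand, Fgf18 at chr11:33147351-33147650 on the minus strand, Dusp6 at chr10:99262981-99263280 and Dusp5 at chr19:53528895-53529194, both on the plus strand.
Fgf2: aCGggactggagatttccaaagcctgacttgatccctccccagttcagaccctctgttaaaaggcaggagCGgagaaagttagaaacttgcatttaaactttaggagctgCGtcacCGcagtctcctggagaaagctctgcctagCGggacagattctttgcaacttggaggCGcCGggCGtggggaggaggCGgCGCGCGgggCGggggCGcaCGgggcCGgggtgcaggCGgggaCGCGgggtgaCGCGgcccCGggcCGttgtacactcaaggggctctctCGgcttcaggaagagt
Fgf18: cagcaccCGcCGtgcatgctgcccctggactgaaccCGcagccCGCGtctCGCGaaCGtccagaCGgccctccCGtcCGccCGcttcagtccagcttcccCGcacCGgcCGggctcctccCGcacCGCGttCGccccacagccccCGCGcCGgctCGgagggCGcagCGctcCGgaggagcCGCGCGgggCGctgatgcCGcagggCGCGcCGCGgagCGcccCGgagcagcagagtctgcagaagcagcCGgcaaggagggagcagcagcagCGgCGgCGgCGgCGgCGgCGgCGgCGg
Dusp6: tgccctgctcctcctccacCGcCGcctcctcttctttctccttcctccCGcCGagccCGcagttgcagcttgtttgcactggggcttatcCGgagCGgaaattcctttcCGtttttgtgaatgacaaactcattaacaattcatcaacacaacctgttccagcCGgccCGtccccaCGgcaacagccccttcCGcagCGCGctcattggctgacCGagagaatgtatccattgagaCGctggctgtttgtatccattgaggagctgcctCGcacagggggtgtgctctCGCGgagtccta
Dusp5: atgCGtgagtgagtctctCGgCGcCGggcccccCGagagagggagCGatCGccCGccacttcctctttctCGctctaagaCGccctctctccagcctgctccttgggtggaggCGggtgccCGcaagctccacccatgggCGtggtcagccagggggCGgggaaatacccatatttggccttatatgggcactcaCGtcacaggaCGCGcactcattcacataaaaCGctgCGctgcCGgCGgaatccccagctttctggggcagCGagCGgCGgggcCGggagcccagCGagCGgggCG
The windows hold 24 CG dinucleotides in Fgf2, 47 in Fgf18, 19 in Dusp6 and 28 in Dusp5. Over all protein-coding windows the median was 23 for those in all 8 lists, 18 for those in 1 to 7 lists and 4 for those in none. The Fgf2 window thus stood next to the median of windows that every list held. The summits of the Fgf2 promoter peak lay at position -295 in the day 3 list and at -376 in the day 7 list. Positions count bases from the transcript start that sets the window, with minus for upstream. Both summits lay upstream of the printed window. The lower-coordinate end of the Fgf2 gene, at 37348477, lies inside the window and upstream of that transcript start. At Dusp6 the summits of all 8 lists lay between -94 and 52. At Fgf18 the summits of the 5 lists that reach the window lay between -978 and -793, outside the window and upstream of it.

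Short motifs were counted in the same windows on both strands. The AP-1 motif TGANTCA was in 2 of 34 member windows, at Fgf12 and Fgf13, beside 7.81% of 32851 windows of all genes. The Ets motif CCGGAAG was in 1, at Fgfrl1 (8.86% of all windows), and the Tcf motif CTTTGAT in 1, at Fgf6 (3.73%). The Sox motif ACAAAG, whose reverse complement shares its first letters with the Tcf motif, was in 6 (18.7%), and the E-box CANNTG, which can overlap any of them, was in 23 (72.3%). Of the 4 windows printed, Dusp6 held 1 E-box and the others none of the 5 motifs. The absence of a match says only that these letters are not in these 300 bases.

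Fgf2, the basic fibroblast growth factor (gene ID 14173, chromosome 3, 37348477 to 37410106), had regions in wound lists alone. It had 4 regions in the day 3 partial-wound list, 3 at day 7 and 1 at day 80, 1 in the day 7 full-wound list and 0 in the day 80 full-wound list, against 0 in the follicle list and in both epidermal lists. All 4 overlapped the gene, and the promoter region (37347842 to 37348940) was in the partial-wound lists of days 3 and 7. For a peak's strength, its rank by score within its own list is given as a percentile, with 100 the highest, which describes that list and shows no change between lists. The region at 37353857 to 37355433 ranked at percentile 75, 80 and 47 in the partial-wound lists of days 3, 7 and 80, and at 52 in the day 7 full-wound list. Its fold enrichment over local background, the authors' value for each peak, was 11.14, 11.62, 12.01 and 10.66 in the same lists. This was the one Fgf2 region of a day 80 list. The region at 37360574 to 37361344 stood at percentile 78 at day 3 and 44 at day 7, and that at 37370159 to 37370872 was in the day 3 list alone, at percentile 15.

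Fgf20, a ligand that acts in the formation of hair follicles in the embryo (gene ID 80857, chromosome 8, 40279166 to 40286953), took the opposite course. It had 1 region in the follicle list, 0 at days 3 and 7 and 4 at day 80 of the partial-thickness wound, 0 at day 7 and 3 at day 80 of the full-thickness wound, and 4 and 3 in the epidermal lists of days 0 and 80. None of the 4 regions overlapped the gene. The region at 40232873 to 40233720, which lies 45446 bp away, stood at percentile 60 in the day 80 partial-wound list, 49 in the day 80 full-wound list, and 86 and 83 in the epidermal lists of days 0 and 80. The nearest, at 40272135 to 40273250 (5916 bp away), stood at 32 and 7 in the day 80 partial-wound and full-wound lists, and at 39 and 48 in the epidermal lists. The region at 40257358 to 40258425 was in the day 80 partial-wound list at percentile 27 and the day 0 epidermal list at 45. The region at 40296559 to 40297258 was the one shared with the follicle list, where it stood at percentile 69. The early lists of both wounds thus lacked every region of this gene that the unwounded epidermis had, and both day 80 wound lists held most of them. With the upper 50% of peaks by score, the day 80 wound lists held 1 (partial) and 0 (full), against 2 in each epidermal list. Where peaks had to cover 50% of a region, they held 4 (partial) and 1 (full), against 4 and 3 in the epidermal lists.

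**Figure D2:**
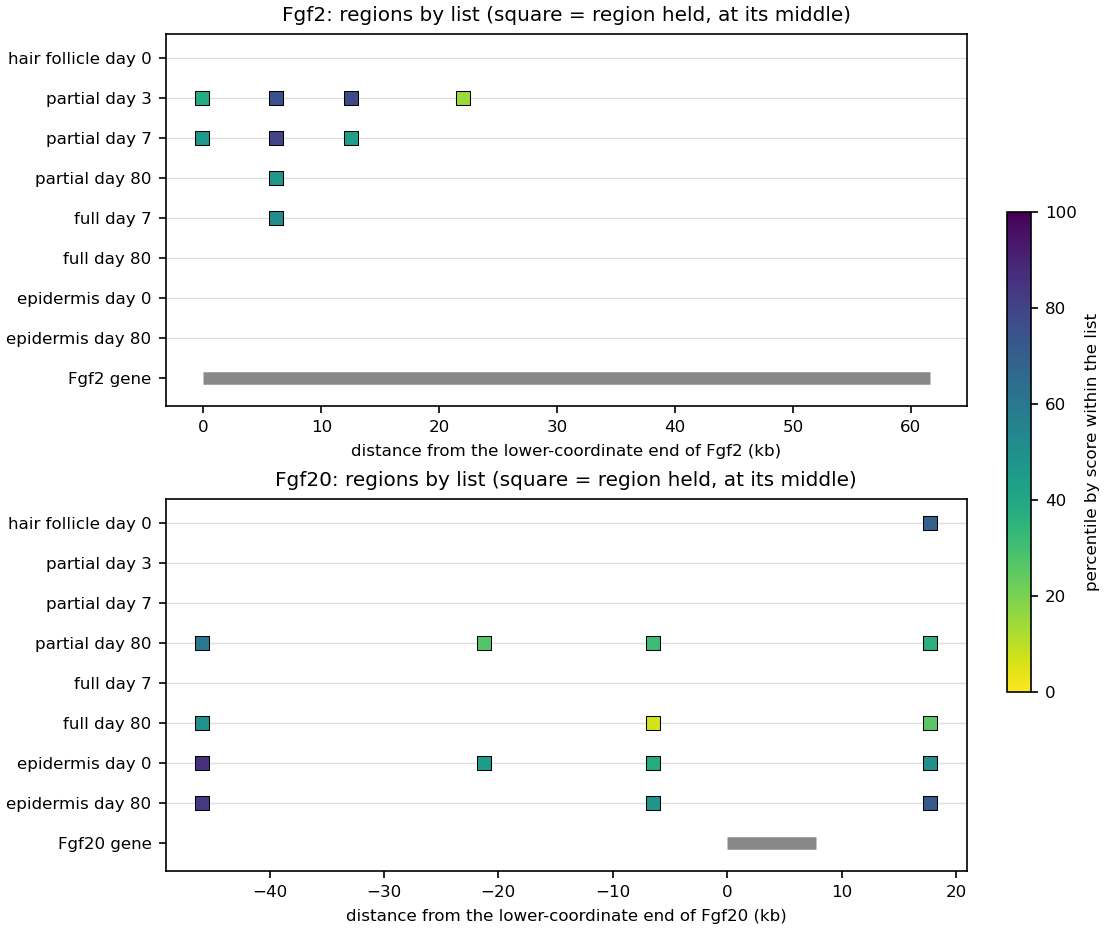
Regions of Fgf2 (above) and Fgf20 (below) in the 8 lists (rows), placed by the distance of their middle from the lower-coordinate end of the gene in kb and coloured by percentile by score within the list; the grey bar is the gene. The Fgf2 regions lie in the partial-wound lists and the day 7 full-wound list, and the Fgf20 regions are missing from all lists of days 3 and 7.

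The ligands that act inside the cell resembled Fgf20 in part. Fgf14 (chromosome 14, 123974441 to 124677686), a very long gene, had 1 region in the follicle list, 0, 0 and 2 at days 3, 7 and 80 of the partial-thickness wound, 1 and 5 at days 7 and 80 of the full-thickness wound, and 4 in each epidermal list. The 4 epidermal regions were the same at both days, and none was in the follicle list or an early wound list. The strongest of them, at 123990285 to 123991123, stood at percentile 27 and 46 in the day 80 partial-wound and full-wound lists, and at 89 and 76 in the epidermal lists of days 0 and 80. The day 80 full-wound list held all 4, and the day 80 partial-wound list held 2. Fgf13 on the X chromosome had 2 regions in each epidermal list, 1 in the day 80 full-wound list and 0 in the other 5 lists. Fgf12 had 2 regions, of which 1 was in the day 3 partial-wound and day 0 epidermal lists, and the other in the day 80 full-wound list alone. These genes are best known from neurons.

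Fgf1, the acidic fibroblast growth factor on chromosome 18, had 7 regions that all lay inside the gene Arhgap26 as well and could be assigned to either. They numbered 6 in the follicle list, 4, 3 and 2 at days 3, 7 and 80 of the partial-thickness wound, 2 in each full-wound list and 3 in each epidermal list. Of these, 3 were in the follicle list alone, at percentiles 20, 17 and 3, all in the weaker part of that list. Fgf18, a ligand tied to the resting phase of the hair cycle, had 1 region (chromosome 11, 33146784 to 33148778) in every list but the day 80 partial-wound list. Its percentile was 73 in the follicle list, 64 and 44 at days 3 and 7 of the partial-thickness wound, 52 and 54 in the full-wound lists, and 63 and 12 in the epidermal lists of days 0 and 80. Fgf9 had 1 region, absent from the day 7 lists of both wounds and present in the other 6 lists. It stood at percentile 53 in the follicle list, 15 and 16 at days 3 and 80 of the partial-thickness wound, 29 at day 80 of the full-thickness wound, and 39 and 26 in the epidermal lists.

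Fgf21, a metabolic hormone mainly of liver, had 1 region 7439 bp from the gene (chromosome 7, 45605442 to 45606451) in every list but that of the hair follicle. It ranked at percentile 95, 86 and 71 at days 3, 7 and 80 of the partial-thickness wound, 99 and 47 at days 7 and 80 of the full-thickness wound, and 50 and 66 in the epidermal lists. Fgf15, a hormone of the intestine, had 2 regions in wound lists alone. They numbered 2, 1 and 1 at days 3, 7 and 80 of the partial-thickness wound and 1 in each full-wound list, against 0 in the 3 unwounded lists, at percentiles from 0 to 32. In lists cut to equal length, the early wound lists held 0 Fgf15 regions and each day 80 wound list held 1. Fgf5, which ends the growth phase of hair, had 2 regions, 1 in each day 7 wound list, at percentile 27 in the partial-wound list and 6 in the full-wound list. Fgf7, the keratinocyte growth factor made by fibroblasts, had 1 region, also inside Fam227b, in the day 80 full-wound list alone at percentile 30, and Fgf10 and Fgf22, which share its receptor, had none. Away from Fgf2, Fgf20, Fgf14 and Fgf1, a ligand gene therefore had at most 2 regions in all.

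Among the receptors, Fgfr2, which in keratinocytes is the receptor of Fgf7 and Fgf10 (gene ID 14183, chromosome 7, 130162451 to 130266808), had the most regions. It had 7 in the follicle list, 8, 8 and 6 at days 3, 7 and 80 of the partial-thickness wound, 9 and 7 at days 7 and 80 of the full-thickness wound, and 4 and 7 in the epidermal lists of days 0 and 80. Of its 14 regions, 3 were in all 8 lists and 5 were in 1 list alone. Among the 3 was the region that reaches the gene start (130264881 to 130266911). Not every list had a peak at the start itself. The promoter window was reached in 4 lists, the partial-wound lists of days 3, 7 and 80 and the day 7 full-wound list. One region, 40586 bp from the gene (130307394 to 130308046), was in all 3 early wound lists and no other, at percentile 43 and 7 at days 3 and 7 of the partial-thickness wound and 58 at day 7 of the full-thickness wound. The region at 130237099 to 130237952 was in all lists, but at percentile 0 in the follicle list, the weakest end of that list, against 64 and 49 in the epidermal lists.

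Fgfr1, a receptor widely present in mesenchyme, had 2 regions in the follicle list, 3, 2 and 1 at days 3, 7 and 80 of the partial-thickness wound, 1 in each full-wound list, and 0 and 2 in the epidermal lists of days 0 and 80. Fgfr3 had 2, then 4, 3 and 2, then 5 and 4, against 2 and 4, in the same order of lists. Its region inside the gene at chromosome 5, 33730159 to 33731600 was in every list but that of the hair follicle, at percentile 72, 50 and 68 in the partial-wound lists, 67 and 83 in the full-wound lists, and 45 and 8 in the epidermal lists. Fgfr4 had 1 region, in all 8 lists, 13476 bp from the gene. Fgfrl1, which lacks the kinase domain, had its promoter region in all lists and a further region 6747 bp away (chromosome 5, 108713697 to 108714763). That region stood at percentile 89 in the follicle list, 45 in the day 80 full-wound list, and 26 and 41 in the epidermal lists, and it was absent from the other 4 wound lists. Every receptor gene had at least 1 region in every list except Fgfr1 in the day 0 epidermal list.

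Spry1 (gene ID 24063, chromosome 3, 37639947 to 37644599), a Sprouty gene with 4 regions, had 2 of them in the follicle list, 2, 2 and 4 at days 3, 7 and 80 of the partial-thickness wound, 3 in each full-wound list, and 4 in each epidermal list. A region 29064 bp away (37673663 to 37675511) stood at percentile 75 in the day 80 partial-wound list, 3 and 33 at days 7 and 80 of the full-thickness wound, and 73 and 77 in the epidermal lists. It was absent from the follicle list and from the partial-wound lists of days 3 and 7. Spry2 (chromosome 14, 105891947 to 105896819) had a region 49513 bp away (105841257 to 105842434), the farthest within the 50 kb limit, in the 3 early wound lists and no other, at percentile 94 and 44 at days 3 and 7 of the partial-thickness wound and 62 at day 7 of the full-thickness wound. Its fold enrichment there was 12.29, 10.43 and 9.09. Spry4, on chromosome 18, had 2 regions in the follicle list, 2, 2 and 1 in the partial-wound lists, 1 in each full-wound list, and 2 and 1 in the epidermal lists. Its region at 38600597 to 38601995 lies inside the gene Arhgap26 as well and could be assigned to either.

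Spred2 had 11 regions, of which 4 were in all 8 lists. The counts were 7 in the follicle list, 6, 8 and 10 at days 3, 7 and 80 of the partial-thickness wound, 8 and 10 at days 7 and 80 of the full-thickness wound, and 7 and 10 in the epidermal lists. Its region at chromosome 11, 19978976 to 19979841 stood at percentile 52 in the follicle list, 97, 88 and 59 in the partial-wound lists, 88 and 40 in the full-wound lists, and 41 and 58 in the epidermal lists. The region next to it, at 19978003 to 19978441, was in the follicle list alone at percentile 39. Spred1 had 2 regions in the follicle list, 5, 4 and 4 in the partial-wound lists, 2 and 3 in the full-wound lists, and 4 and 2 in the epidermal lists. Spred3 had 2 in the follicle list, 2 at each day of the partial-thickness wound, 2 and 0 in the full-wound lists, and 0 and 1 in the epidermal lists, and its region at chromosome 7, 29169303 to 29171356 also lies over the gene Ggn.

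Dusp6, the phosphatase of ERK in the cytoplasm (gene ID 67603, chromosome 10, 99263231 to 99267489), had a region that ranked high in every list. It covers the gene start (99261243 to 99265053) and stood at percentile 99 in the follicle list, 91, 92 and 95 at days 3, 7 and 80 of the partial-thickness wound, 78 and 92 at days 7 and 80 of the full-thickness wound, and 98 in each epidermal list. Around it lay 5 regions that some list lacked. The region at 99236938 to 99237916 was in every list but the day 80 partial-wound list, at percentile 98 in the follicle list and 98 and 92 at days 3 and 7 of that wound. The region at 99308655 to 99310404 was in every list but the follicle list, at percentile 87, 56 and 49 at days 3, 7 and 80 of the partial-thickness wound. The 3 early wound lists, and none of the rest, shared the region at 99247171 to 99248181, at percentile 46, 52 and 25. A pair, at 99243451 to 99244142 and 99298649 to 99299591, was in the follicle list alone, at percentiles 27 and 49.

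Dusp5, an ERK phosphatase of the nucleus, had its promoter region (chromosome 19, 53528381 to 53530059) in all lists at percentiles from 78 to 94. It had 1 region in the follicle list, 3, 2 and 4 at days 3, 7 and 80 of the partial-thickness wound, 3 and 4 in the full-wound lists, and 3 and 4 in the epidermal lists, so the follicle list held its promoter alone. Dusp4, a nuclear phosphatase of several MAP kinases, had 1 region in all 8 lists and 1 further region in the day 7 lists of both wounds, at percentile 0 in the partial-wound list and 13 in the full-wound list.

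**Figure D3:**
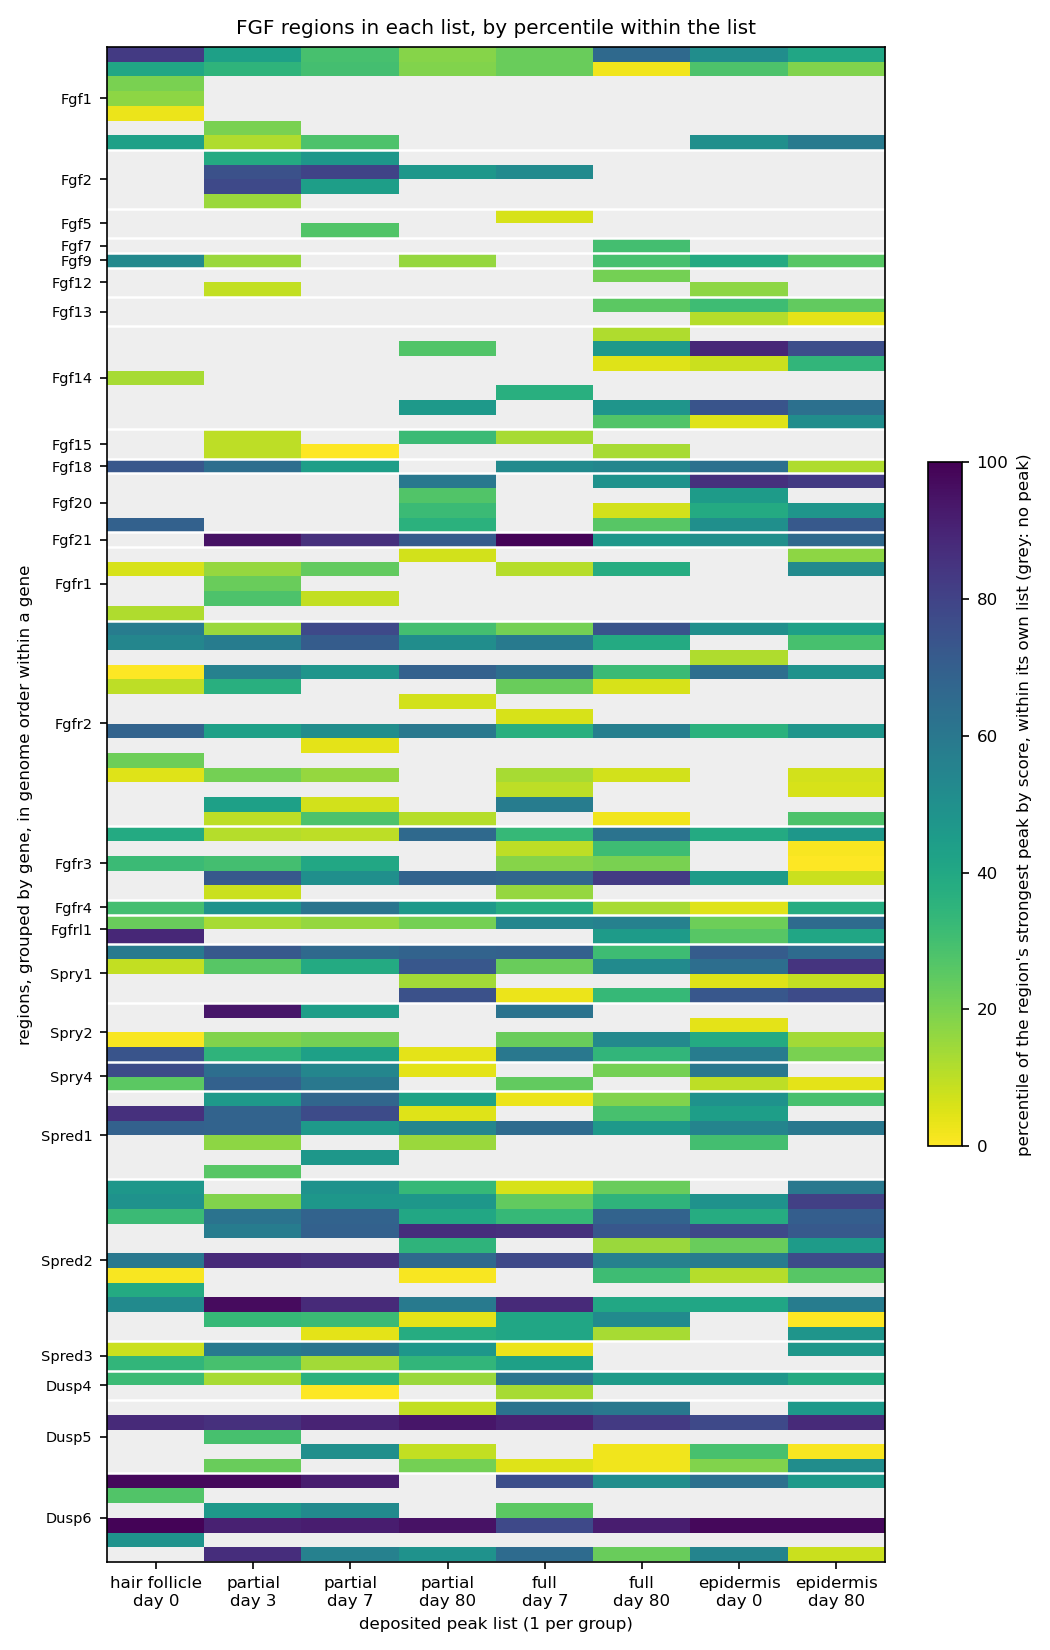
All 103 FGF regions (rows, grouped by gene from ligands at the top to Dusp genes at the bottom) in the 8 lists (columns), coloured by the percentile of the region's strongest peak by score within its own list, grey where the list has no peak. The regions of Fgf20, Fgf13 and most of Fgf14 are grey in the columns of days 3 and 7, and those of Fgf2 are coloured in the wound columns only.

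In unwounded skin, FGF regions that separated follicle from epidermis lay in both directions. The follicle list held 17 that the day 0 epidermal list lacked (16.5%, 9.92 to 25.1), beside a background of 17.2% of all regions, and the epidermal list held 23 that the follicle list lacked (22.3%, 14.7 to 31.6), beside 19.1%. Both shares are near their background. By role, the 17 comprised 4 at ligands, 7 at receptors, among them 4 at Fgfr2, and 6 at inhibitors. The 23 comprised 11 at ligands, 2 at receptors and 10 at inhibitors, with Fgf14 (4), Fgf20 (3), Fgf13 (2), Dusp5 (2), Spry1 (2), Spred1 (2) and Spred2 (2) holding most. Of the 17 hair follicle regions, 7 were in the day 3 and 7 in the day 7 partial-wound list (41.2% each, 18.4 to 67.1), and 4 at day 80 (23.5%), beside 34.9%, 33.6% and 18.9% of all regions of the same kind. The full-wound lists held 8 at day 7 (47.1%, 23.0 to 72.2, beside 23.4%) and 6 at day 80 (35.3%, 14.2 to 61.7, beside 16.7%). These differences from all regions were not tested. The day 80 epidermal list held 6 of the 17 (35.3%, 14.2 to 61.7, beside 16.9%). This left 11 in neither epidermal list (10.7% of the 103, beside 14.3%). The partial-wound lists held 2 of the 11 at day 3 (18.2%, beside 28.7%), 1 at day 7 (9.09%, beside 26.6%) and 1 at day 80 (9.09%, beside 9.85%). The full-wound lists held 2 at day 7 (18.2%, beside 16.2%) and 1 at day 80 (9.09%, beside 8.72%). The higher full-wound shares above were thus not seen for these 11. Of the 23 epidermal regions, 18 were in both epidermal lists (17.5% of the 103, beside 13.7%). Counting regions of any epidermal list that the follicle list lacked gave 30 (29.1%, beside 25.5%).

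Early wound lists lacked most of the epidermal regions. Of the 23, the partial-wound lists held 8 at day 3 (34.8%, 16.4 to 57.3), 6 at day 7 (26.1%, 10.2 to 48.4) and 16 at day 80 (69.6%, 47.1 to 86.8), beside 44.6%, 52.3% and 71.8% of all regions of the same kind. The full-wound lists held 7 at day 7 (30.4%, beside 52.6%) and 16 at day 80 (69.6%, beside 70.7%). In all, 13 FGF regions were in both epidermal lists and in none of the 3 early wound lists (12.6%, 6.89 to 20.6), beside a background of 5.71% of all regions. Against the partial-wound lists of days 3 and 7 alone the count was 14 (13.6%, beside 6.87%). The 13 were 4 of Fgf14, 3 of Fgf20, 2 of Fgf13, 2 of Spred2, and 1 each of Spry1 and Fgfrl1, so 9 of the 13 lay at 3 ligand genes. At day 80 the partial-wound list held 8 of the 13 (61.5%, beside 71.7% of all regions of this class) and the full-wound list 11 (84.6%, beside 61.6%). The count was 16 with the day 0 epidermal list by itself (all regions 8.38%) and 14 with the day 80 list by itself (10.2%). Read in peaks of the upper 50% by score of each list, it was 7 of 50 FGF regions, beside 6.21% of all. No test was run on this difference from the background, and the class was chosen after its values had been seen. The weakest peaks of the 3 early wound lists had −log10 p values of 39.70, 40.19 and 32.24, against 13.52 and 7.86 in the epidermal lists. A weak epidermal region may thus be missing from an early wound list by threshold, and the part of this in the class was not tested.

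**Figure D4:**
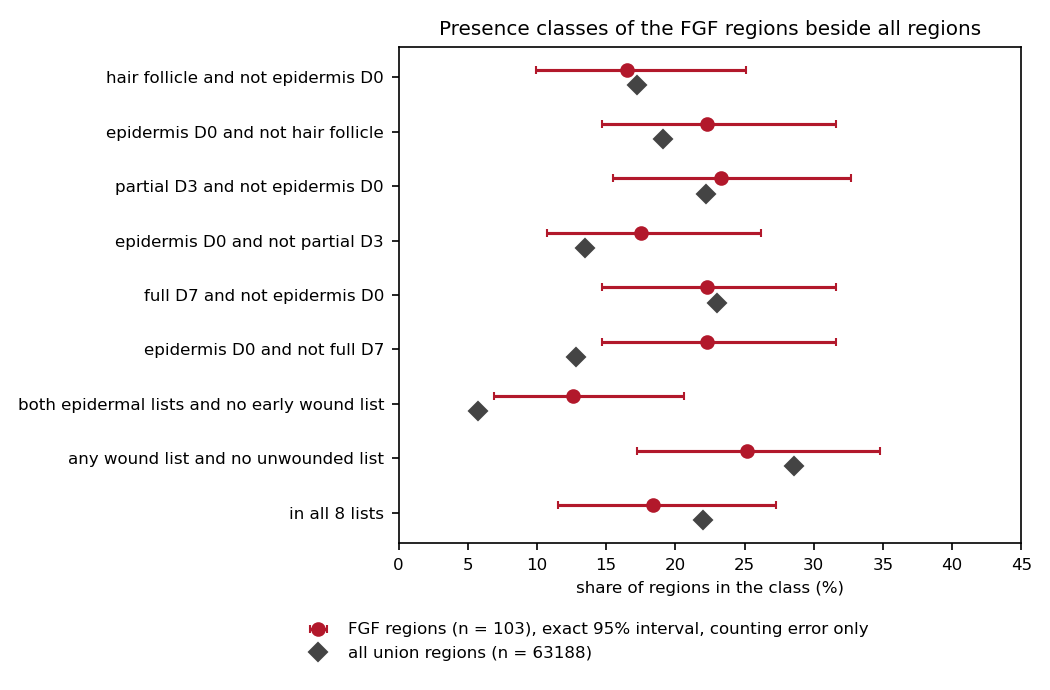
Share of the 103 FGF regions (circles, with exact 95% intervals for counting error) and of all 63188 union regions (diamonds) in presence classes of the lists, in percent. Most FGF shares lie close to the share of all regions; those in epidermal lists and absent from early wound lists stand higher, at 12.6% beside 5.71% in the class that needs both epidermal lists.

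Wound lists also held FGF regions that no unwounded list had. There were 26 of them (25.2%, 17.2 to 34.8), beside 28.6% of all regions, a share near the background. Of these, 22 were in an early wound list (24.1% of all regions), led by Fgf2 (4), Fgfr2 (3), Fgf15 (2), Fgf5 (2), Fgfr1 (2) and Spred1 (2). All 3 early lists shared 4, which were the regions of Fgf2, Fgfr2, Spry2 and Dusp6 given above (5.94% of all regions). A ligand, a receptor and 2 inhibitors thus had 1 such region each. An early and a day 80 wound list shared 3, at Fgf2 and Fgf15 (5.42%). Counted from the day 0 lists alone, the early partial-wound lists had 22 wound-gained regions (21.4%, beside 19.8%). The day 80 partial-wound list held 5 of them (22.7%, 7.82 to 45.4, beside 18.5% of all wound-gained regions), the day 80 full-wound list 4 (18.2%, 5.19 to 40.3, beside 21.6%), and the day 80 epidermal list 3 (13.6%, 2.91 to 34.9, beside 10.4%). These shares are near those of all such regions. Of the 22, 19 were absent from day 80 epidermis too (18.4% of the 103, beside 17.8%).

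The early wound lists were also set against one unwounded list at a time. The day 3 partial-wound list held 25 FGF regions that the follicle list lacked (24.3%, beside 24.7%), with 9 at ligands and 6 at receptors, and lacked 13 that it had (12.6%, beside 14.1%), with 5 at ligands and 3 at receptors. Against the day 0 epidermal list, the day 3 list held 24 in addition (23.3%, beside 22.2%), with 7 at ligands and 10 at receptors, and lacked 18 (17.5%, beside 13.5%), with 10 at ligands and 2 at receptors. The day 7 partial-wound list held 22 in addition (21.4%, beside 18.4%), with 5 at ligands and 8 at receptors, and lacked 21 (20.4%, 13.1 to 29.5, beside 11.3%), with 12 at ligands and 2 at receptors. The day 7 full-wound list held 23 in addition (22.3%, beside 23.0%), with 4 at ligands and 10 at receptors, and lacked 23 (22.3%, 14.7 to 31.6, beside 12.8%), with 13 at ligands and 2 at receptors. The last 3 comparisons share the day 0 epidermal list, and the split by role was not tested. That list also differed from the other epidermal list in receptor regions, since the day 80 list held 13 FGF regions that the day 0 list lacked (12.6%, beside 9.27%), with 8 at receptors and 0 at ligands, and lacked 7 (6.80%, beside 7.27%).

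The wounds were compared at the same days. At day 7 the full-wound list held 11 FGF regions that the partial-wound list lacked (10.7%, beside 13.5% of all regions), with 3 at Fgfr2, 2 at Fgfr3 and 2 at Dusp5. The partial-wound list held 12 that the full-wound list lacked (11.7%, beside 10.5%), with 2 at Fgf2 and 2 at Spred1. At day 80 the counts were 16 for the full-wound list (15.5%, 9.15 to 24.0, beside 9.66%), with 3 at Fgf14, 2 at Fgfr2 and 2 at Fgfr3, and 9 for the partial-wound list (8.74%, 4.07 to 15.9, beside 10.5%). Healed wounds held 9 FGF regions absent from both epidermal lists (8.74%, beside 12.0%), 5 in the full-wound list (7.03% of all regions) and 4 in the partial-wound list (7.14%). Leaving out those of the follicle list too, 4 were left in the full-wound list (5.78%), at Fgf7, Fgf12, Fgf14 and Fgf15, and 3 in the partial-wound list (5.73%), at Fgf2, Fgf15 and Fgfr2.

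Other genes of the pathway were counted by gene. Of 46 such genes (co-receptors, ligand carriers, heparan sulfate enzymes, adaptors, the kinase cascade, other inhibitors and transcriptional targets), 44 had a region, with 221 regions in all, and Klb and Frs3 had none. The follicle list had more regions than the day 0 epidermal list at 10 of 42 genes with a region in either (all genes 24.6%), and fewer at 16 (29.1%). For the FGF members these numbers were 5 and 9 of 22. In the day 3 partial-wound list, 20 of 42 pathway genes had more regions than in the day 0 epidermal list (all genes 39.2%) and 10 had fewer (17.0%), against 9 and 6 of 24 FGF members. In the day 7 partial-wound list these were 16 (all genes 35.3%) and 9 (17.4%) of 42 pathway genes, against 10 and 8 of 25 FGF members. In the day 7 full-wound list, 20 of 42 pathway genes had more (all genes 41.5%) and 7 fewer (17.3%) than in that epidermal list, against 10 and 10 of 25 FGF members. At day 80, set against the day 80 epidermal list, the partial-wound list had more regions at 5 and fewer at 10 of 23 FGF members (all genes 26.2% and 16.3%). For the pathway genes these numbers were 13 and 7 of 40. The full-wound list had more at 5 and fewer at 5 of 24 FGF members (all genes 23.9% and 18.5%), against 15 and 8 of 41 pathway genes. Cbl, which tags active receptors for removal, had 2 regions in the follicle list, 4, 4 and 3 in the partial-wound lists, 5 and 2 in the full-wound lists, and 1 in each epidermal list. The adaptor gene Frs2, which links FGF receptors to Ras, was closer to Fgf20, with 1 region in the follicle list, 1, 2 and 4 in the partial-wound lists, 1 and 3 in the full-wound lists, and 4 in each epidermal list. The target gene Etv4, an Ets factor, had 4 regions in each of the 3 early wound lists and 2 in each of the other 5 lists. These 3 genes were chosen after their values had been seen.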

How the data were processed

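The samples were sorted mouse skin cells profiled by ATAC-seq, and the deposited data were 1 narrowPeak list per group (8 lists for 24 samples, mm10). The tools, named with no roles per the submitters' processing notes, were MACS2 2.1.1.20160309, bedtools 2.29.2, Picard and Bowtie. For cut-site shifting, thresholds and pooling, the sources used here give nothing. As deposited by the authors, each peak has a score (10 times its −log10 q), a fold enrichment ratio over local background and a −log10 p. Read depth is unknown, and 1 list per group left no test between groups.

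All 267990 peaks were merged with no gap, and a list held a region where a peak overlapped it by 1 bp or more. Regions were assigned within 50 kb to 21896 RefSeq protein-coding genes (GRCm38.p6), which placed 52773 of the 63188. Of the FGF regions, 10 lay inside more than 1 gene and went to the gene with the end nearer the region's midpoint. Shares have exact 95% Clopper-Pearson intervals and stand beside the share of all regions. Every member gene with a region was named. An order by lists holding them and percentile was set for regions given by coordinates, and for promoters likewise. The text departs from that order for regions, since some Spred2 regions high in it are left out and lower ones of other genes are given. Further choices made after seeing values are marked. Members, gene lists and classes were chosen with earlier results of these data known. Alternatives were peaks covering 50% of a region, the upper 50% of peaks by score, equal list lengths, windows of 10 and 100 kb, a merge gap of 200 bp, the day 80 epidermal reference and, added after seeing the data, ties left out. Steps were tested on simulated data. Software was Python 3.11.15 with pandas 2.3.3, numpy 2.4.6, scipy 1.17.1 and matplotlib 3.10.9.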

Additional observations from a re-analysis of the deposited data

How the results depend on the processing

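Of 200 counts and shares recomputed under the alternatives, 180 stayed close to the reported value. Close was a loose label, as every share so labelled needed only to lie inside the exact interval of the reported share. At equal list lengths, 6.67% beside 18.2% (5.19 to 40.3) was close, for wound-gained regions in the day 80 full-wound list. A count of 29 beside 22 was close too, for regions of an early wound list and no unwounded list where peaks covered 50%. The merge gap of 200 bp and leaving out regions inside more than 1 gene each left all 27 values close. Of 400 differences in regions per gene, 342 kept their sign, 52 went to or from 0 and 6 reversed. With the upper 50% of peaks by score, which leaves fewer peaks by construction, the lists held 18 (follicle), 22, 21 and 16 (partial-wound days 3, 7 and 80), 21 and 17 (full-wound days 7 and 80), and 20 and 22 (epidermis days 0 and 80) FGF regions. The classes then held 7 follicle regions absent from day 0 epidermis, 9 of the opposite kind, 11 wound-gained regions of the partial wound, 12 of an early wound and no unwounded list, 7 of both epidermal lists and no early wound list, and 8 of the day 0 epidermal list and no early wound list. The day 7 partial-wound list held 71.4% of the follicle regions. Differences in regions reversed there for Dusp6 (-1), Fgf1 (-1) and Spred1 (1) in follicle minus day 0 epidermis, and for Fgf1 (-2) and Spred2 (2) in day 3 minus day 0 epidermis. Where peaks had to cover 50% of a region, the day 80 full-wound list held 20 FGF regions and 3.85% of the wound-gained ones, and Fgfrl1 reversed to 1 in day 3 minus day 0 epidermis; that list also had the narrowest peaks. A 10 kb window, which drops distant regions, left 15 epidermal regions absent from the follicle and 7 of full-wound and not partial-wound day 7. With the day 80 epidermal list as reference, the day 80 full-wound list held 4.76% of the wound-gained regions. Other causes were not tested. Under every alternative run, the 3 early wound lists held 0 regions of Fgf20 and the unwounded lists 0 of Fgf2. Most alternatives only take away peaks or regions, or change the reference, and could not have raised a count of 0. Only the 100 kb window and the merge gap of 200 bp could have done so. The Fgf20 counts of the day 80 wound lists did fall under some alternatives, as given for that gene. No paired analysis was possible because each group came as 1 list, and no replicate could be left out for the same reason. Read depth limits which weak regions a list holds and is unknown.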
